A study of Homo sapiens with 6 samples.

Results

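Glucose uptake, glycolysis and the transcriptional response to low oxygen were followed through 10 genes in PA-1 cells: SLC2A1, HK2, PFKFB4, ALDOA, ALDOC, PGK1, LDHA, BNIP3, VEGFA and CA9. The genes were taken by symbol from a table of 20494 genes, and all 10 were found. A mean of at least 1 RPKM (reads scaled for gene length and for library total) over the 6 libraries was reached by 9 of the 10 and by 11881 genes in all. CA9 was the gene below that level, and its values are given but enter no count.

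PA-1 is an established human cell line grown from a teratocarcinoma of the ovary, and it shares much of its gene expression with embryonal carcinoma cells. The study compared plasmids for 4 receptor-interacting protein kinases, and the ligand Wnt3a, with empty vector, by RNA sequencing of 1 library each. The Vector, RIPK1, RIPK2, RIPK3 and RIPK4 groups received 8 µg of pcDNA3.1 plasmid, empty or carrying the kinase named, and were held for 48 h. The Wnt3a group was given 200 ng of the ligand for 16 h. No plasmid amount is recorded for these cells, so ligand, plasmid and time cannot be told apart wherever Wnt3a is set against a plasmid library. All groups shared one medium that contains high glucose, and the labels name no oxygen level.

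Glycolysis splits glucose into pyruvate, and cells that make lactate from the pyruvate regain the cofactor that lets the pathway run on. When oxygen is short, the hypoxia-inducible factors HIF1A and EPAS1 escape degradation, pair with ARNT and bind short DNA sites beside genes for glucose transport, glycolytic enzymes, blood vessel growth, acid balance and mitochondrial turnover. Pluripotent and embryonal carcinoma cells are known for a high rate of glycolysis even where oxygen is plentiful.

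Library totals lay between 17.2 and 19.5 M reads. Each kinase was highest in the library named for it, with RIPK4 at 17.9 RPKM there and at 0 in the other 5, RIPK3 at 61.4 RPKM, RIPK2 at 27.4 RPKM against 11.8 with Vector, and RIPK1 at 16.6 RPKM against 12.8. Of 8 markers of pluripotent embryonal cells, 7 were at 1 RPKM or more in every library and NANOG was in none, and their summed level ranged from 436 to 733 RPKM. Haematopoietic markers were below 1 RPKM throughout (0 of 5). Endothelial markers stood at 40.9 to 54.4 RPKM in sum with VWF below 1 RPKM. Fibroblast markers summed to 66.0 RPKM with Vector and 58.7 with RIPK1, but to 116 with Wnt3a, 128 with RIPK2, 138 with RIPK3 and 104 with RIPK4. The collagen genes COL1A1 and COL1A2 and the receptor PDGFRB made up nearly all of that sum, and the defining fibroblast markers DCN and LUM were below 1 RPKM in each library. The part of these markers in the differences of the 10 genes was not tested. Each group is a single library, so the differences have no check by replicates and no p-value, and all of them compare libraries. In RNA from bulk cells, fewer cells of a kind and less RNA per cell cannot be told apart.

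The promoters of 9 of the 10 genes were matched in RefSeq (GRCh38.p14), as 13 windows that hold the 250 bases before a transcription start. HIF binds a core written ACGTG or GCGTG, and it was searched on both strands, so that the palindrome CACGTG counts as 2 matches. The 4 windows shown belong to the 3 genes with the widest range of log2(RPKM + 1) over the libraries (ALDOC, SLC2A1 and PFKFB4) and to LDHA, which stood below Vector in 4 of them. They are written 5′ to 3′ on the gene's strand, with the HIF cores in capitals (on the opposite strand these read CACGT or CACGC).
ALDOC, chr17:28576896-28577145, minus strand: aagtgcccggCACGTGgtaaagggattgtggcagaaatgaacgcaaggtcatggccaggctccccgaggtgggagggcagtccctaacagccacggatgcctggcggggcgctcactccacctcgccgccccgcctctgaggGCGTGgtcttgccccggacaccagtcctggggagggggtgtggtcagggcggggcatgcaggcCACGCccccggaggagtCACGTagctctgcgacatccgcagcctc
SLC2A1, chr1:42958869-42959118, minus strand: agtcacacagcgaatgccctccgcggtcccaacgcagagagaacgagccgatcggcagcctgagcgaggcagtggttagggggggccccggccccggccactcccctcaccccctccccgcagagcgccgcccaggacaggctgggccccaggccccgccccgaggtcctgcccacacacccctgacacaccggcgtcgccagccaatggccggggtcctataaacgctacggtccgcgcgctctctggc
PFKFB4, chr3:48556804-48557053, minus strand: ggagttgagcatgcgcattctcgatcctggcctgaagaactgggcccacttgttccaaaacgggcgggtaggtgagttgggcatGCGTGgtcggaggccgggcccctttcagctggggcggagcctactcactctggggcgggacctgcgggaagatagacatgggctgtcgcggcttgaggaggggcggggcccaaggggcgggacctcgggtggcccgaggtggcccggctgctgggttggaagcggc
LDHA, chr11:18394313-18394562, plus strand: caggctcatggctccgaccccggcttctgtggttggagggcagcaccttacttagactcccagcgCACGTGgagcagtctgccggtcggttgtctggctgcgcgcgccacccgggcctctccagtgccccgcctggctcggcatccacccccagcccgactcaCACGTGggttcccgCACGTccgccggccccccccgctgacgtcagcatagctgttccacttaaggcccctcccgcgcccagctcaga
Of these windows, those of ALDOC and LDHA each held 5 matches, PFKFB4 held 1, at 166 bases before the start, and SLC2A1 held none. At least 1 core stood in 12 of the 13 windows, against 43.2% of all 35116 RefSeq windows of that length. ACGTG stood in 18.5% of all windows and GCGTG in 32.2%. By gene the count was 8 of 9, with several windows each for ALDOA, LDHA and HK2, and no share by gene was computed. The genes were taken for their part in glycolysis and the hypoxia response, so these counts are no finding of the libraries. Both cores contain CG, and the 13 windows had GC contents of 53.2% to 81.6%, for which the share was not adjusted. The closest core to a start lay 18 bases before that of CA9. No window held CTTTGAT, a site bound by the TCF factors of the Wnt pathway, nor its variant form CTTTGAA, nor the other variant form CTTTGTT, and 1 or more of these stood in 9.97% of all windows. A match describes the letters only, and no binding was measured.

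SLC2A1 (GLUT1, gene identifier 6513) carries glucose into the cell and had the widest range of log2(RPKM + 1) of the 10 genes, 1.26 between its highest and lowest library. As a ratio of RPKM this was 2.42-fold, less than the 2.502-fold of ALDOC and the 7.07-fold of CA9, which had few reads. Its level was 135 RPKM with Vector, 236 with Wnt3a, 97.9 with RIPK1, 164 with RIPK2, 180 with RIPK3 and 209 with RIPK4. The Wnt3a and RIPK4 libraries were the highest, RIPK1 was the lowest, and all 5 steps between neighbours in this order exceeded counting error. Against Vector the RPKM ratio was 1.75 with Wnt3a (95% interval 1.71 to 1.80) and 1.55 with RIPK4 (1.51 to 1.59), and with RIPK1 the level was 1.38-fold lower (1.34 to 1.42). These intervals, and those that follow, come from the reads of both libraries. They cover counting error and not the variation between cultures or library preparations, which 1 library per group cannot show. Without molecular identifiers 1 molecule can give several reads, so the intervals may be too narrow even for counting error. The reads of SLC2A1, ALDOA and PGK1 were approximated from transcript length, and those of the other 7 genes were recovered as whole numbers.

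SLC2A3 (GLUT3), a transporter with a high affinity for glucose, did not follow SLC2A1. It stood at 198 RPKM with Vector, 184 with Wnt3a, 157 with RIPK1, 112 with RIPK2, 131 with RIPK3 and 182 with RIPK4. SLC2A1 therefore made up 40.5% of the RPKM of the pair with Vector and 38.4% with RIPK1, but 56.2% with Wnt3a, 59.5% with RIPK2, 57.8% with RIPK3 and 53.4% with RIPK4. The ratio of SLC2A1 to SLC2A3 was 2.16 times that of Vector with RIPK2 (2.07 to 2.24) and 2.01 times with RIPK3 (1.94 to 2.09). SLC2A1 has a transcript GC content of 54.8% and SLC2A3 one of 45.8%, and with the trend on GC content described below removed, the log2 change of that ratio with RIPK2 went from 1.11 to 0.79.

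**Figure D1:**
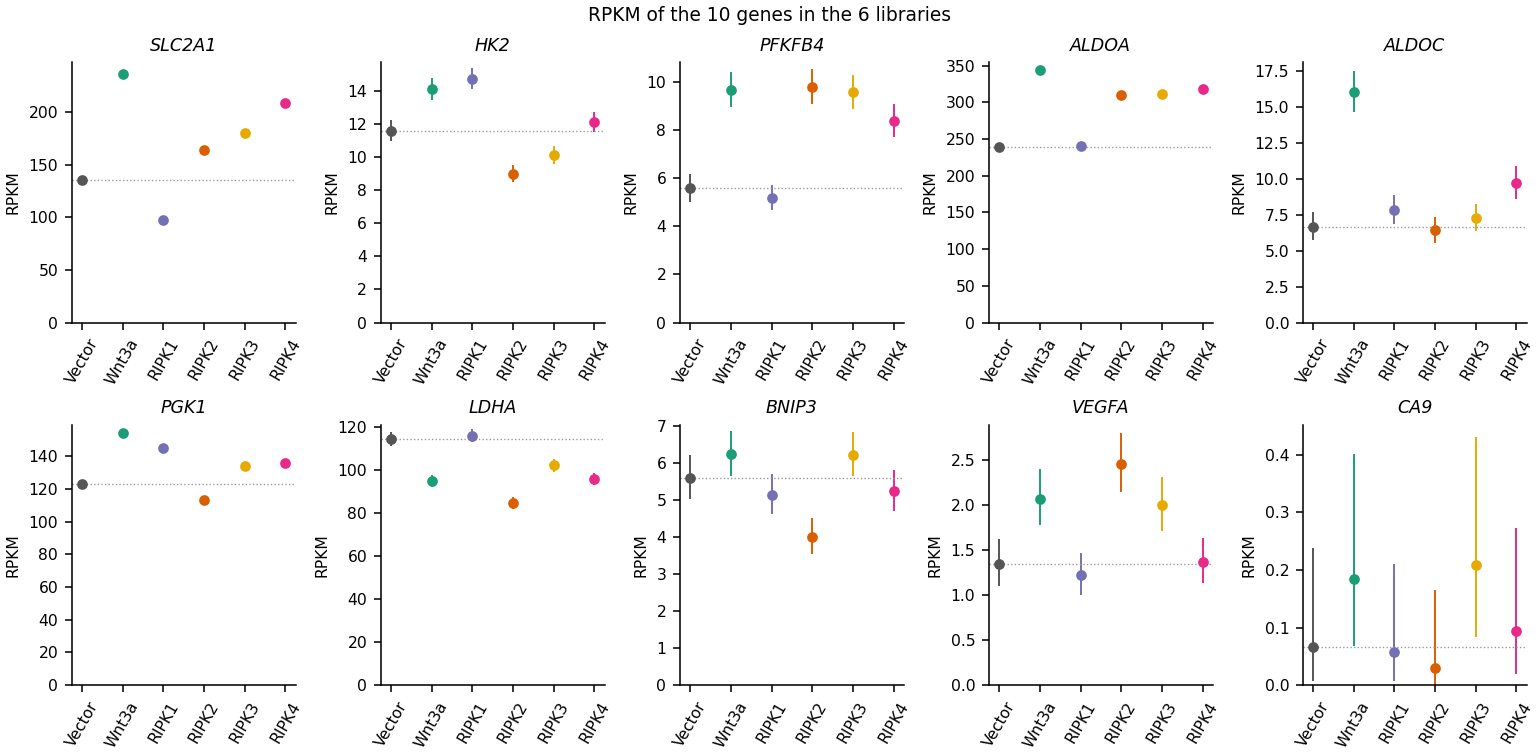
RPKM of the 10 genes (vertical axes, from 0) in the 6 libraries (horizontal axes), with bars for the exact 95% Poisson interval of the reads and a dotted line at the Vector level. SLC2A1 spans 97.9 to 236 RPKM with no overlap of neighbours, whereas the bars of CA9 all overlap.

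HK2 (3099), a hexokinase that sits on mitochondria and traps glucose as its phosphate, was highest with RIPK1. Its level was 11.6 RPKM with Vector, 14.1 with Wnt3a, 14.8 with RIPK1, 9.01 with RIPK2, 10.1 with RIPK3 and 12.1 with RIPK4. RIPK1 and Wnt3a did not differ beyond counting error, nor did RIPK4 and Vector, and RIPK3 and RIPK2 lay below all of these. The ratio to Vector was 1.27 with RIPK1 (1.19 to 1.36), and with RIPK2 the level was 1.29-fold lower (1.19 to 1.39). The difference with RIPK1, 0.32 on the log2(RPKM + 1) scale, was larger than for 94.8% of the genes measured. HK1, the widely expressed hexokinase, stood above HK2 in each library, at 45.2 RPKM with Vector. HK2 made up 20.4% of hexokinase RPKM with Vector, 22.0% with RIPK1, 18.7% with RIPK4, 17.7% with Wnt3a, 15.2% with RIPK3 and 14.4% with RIPK2. The ratio of HK2 to HK1 with RIPK2 was 0.656 times that with Vector (0.601 to 0.715), a log2 change of -0.61 as deposited and -0.54 with the GC trend removed.

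PFKFB4 (5210) makes and breaks down the sugar bisphosphate that switches on phosphofructokinase, the main control point of the pathway. It stood at 5.57 RPKM with Vector, 9.65 with Wnt3a, 5.19 with RIPK1, 9.79 with RIPK2, 9.57 with RIPK3 and 8.39 with RIPK4. The libraries formed a low pair, Vector and RIPK1, and a high set of 4, in which RIPK2, Wnt3a and RIPK3 did not differ beyond counting error and RIPK4 lay a little lower. Against Vector the ratio was 1.76 with RIPK2 (1.55 to 1.996), 1.73 with Wnt3a (1.53 to 1.97), 1.72 with RIPK3 (1.51 to 1.95) and 1.51 with RIPK4 (1.32 to 1.72). PFKFB3, the family member with the strongest kinase activity, was the more abundant, and PFKFB4 made up 29.4% of the RPKM of the 4 PFKFB genes with Vector and between 26.9% (RIPK1) and 35.2% (Wnt3a) elsewhere. The ratio of PFKFB4 to PFKFB3 was 1.30 times that of Vector with Wnt3a (1.12 to 1.51) and also 1.30 times with RIPK4 (1.12 to 1.52). With RIPK2 (1.12 times, 0.971 to 1.30), RIPK3 (1.15 times, 0.989 to 1.33) and RIPK1 (0.902 times, 0.765 to 1.06) the intervals included no difference. In RefSeq, PFKFB4 overlaps UCN2, a peptide hormone gene, which stood at 7.46 RPKM with Vector, 6.18 with Wnt3a, 3.93 with RIPK1, 19.0 with RIPK2, 12.3 with RIPK3 and 6.25 with RIPK4. The sources used here do not say whether counting used strand, and reads that the genes could share were not told apart.

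ALDOA (226) and ALDOC (230) are aldolases, which cut another sugar bisphosphate, the product of phosphofructokinase, into triose phosphates. ALDOA, the form of muscle and most growing cells, stood at 239 RPKM with Vector, 344 with Wnt3a, 241 with RIPK1, 310 with RIPK2, 311 with RIPK3 and 319 with RIPK4. Vector and RIPK1 did not differ beyond counting error (ratio 1.01, 0.981 to 1.03), and the other 4 libraries stood from 1.30 to 1.44 times the Vector level. ALDOA has the highest GC content of the 10 transcripts, 62.0%, and its differences from Vector, 0.37 to 0.52 in those 4 libraries, came to 0.02 to 0.17 with the GC trend removed.

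ALDOC, the form best known from brain, showed another order. It stood at 6.68 RPKM with Vector, 16.0 with Wnt3a, 7.83 with RIPK1, 6.41 with RIPK2, 7.27 with RIPK3 and 9.69 with RIPK4. Wnt3a stood apart at the top and RIPK4 came next, and among the other 4 libraries no step between neighbours exceeded counting error, though RIPK1, the highest of them, stood 1.22-fold above RIPK2, the lowest (1.01 to 1.48). With Wnt3a the ratio to Vector was 2.40 (2.03 to 2.85), from 490 against 190 reads, and the difference of 1.15 lay at the 99.6th percentile of all genes measured. With RIPK4 the ratio was 1.45 (1.21 to 1.75). ALDOC made up 2.72% of aldolase RPKM with Vector, 4.46% with Wnt3a and 2.02% with RIPK2. The ratio of ALDOC to ALDOA was 1.67 times that of Vector with Wnt3a (1.41 to 1.98), and its log2 change of 0.74 was 0.73 with the GC trend removed.

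PGK1 (5230), the phosphoglycerate kinase that makes the first ATP of the pathway, varied less. Its level was 123 RPKM with Vector, 154 with Wnt3a, 145 with RIPK1, 113 with RIPK2, 134 with RIPK3 and 136 with RIPK4. Wnt3a and RIPK1 were the highest, RIPK2 was the lowest, and RIPK4 and RIPK3 did not differ beyond counting error. The ratio to Vector was 1.25 with Wnt3a (1.22 to 1.28) and 1.18 with RIPK1 (1.15 to 1.21). PGK1 has the lowest GC content of the 10 transcripts, 43.3%, and with the GC trend removed its difference with Wnt3a went from 0.32 to 0.53. That with RIPK2 went from -0.12 to 0.08. PGK2, the form of sperm, was listed at 0 in each library.

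LDHA (3939) turns pyruvate into lactate and was the 1 gene of the 9 to stand below Vector with Wnt3a (46.7% of all genes did). Its level was 114 RPKM with Vector, 94.9 with Wnt3a, 116 with RIPK1, 84.6 with RIPK2, 102 with RIPK3 and 95.6 with RIPK4. Vector and RIPK1 did not differ beyond counting error, and the other 4 libraries were lower. The level was 1.35-fold lower with RIPK2 (1.29 to 1.41), 1.20-fold with both Wnt3a (1.16 to 1.26) and RIPK4 (1.15 to 1.25), and 1.12-fold with RIPK3 (1.08 to 1.17). With the GC trend removed, RIPK2 kept a difference of -0.25, and those of Wnt3a, RIPK3 and RIPK4 were -0.06, -0.03 and -0.10. LDHB, the subunit of heart and oxidative tissues, was the more abundant, at 616 RPKM with Vector, and LDHA made up between 13.1% (Wnt3a) and 15.8% (RIPK3) of the pair, with 15.6% in Vector. The ratio of LDHA to LDHB was below that of Vector with Wnt3a (0.813 times, 0.776 to 0.852), RIPK1 (0.841 times, 0.804 to 0.878) and RIPK4 (0.877 times, 0.837 to 0.919). With RIPK2 (0.987 times, 0.941 to 1.04) and RIPK3 (1.01 times, 0.969 to 1.06) it did not differ from that of Vector beyond counting error, and LDHB stood at 462 RPKM with RIPK2.

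**Figure D2:**
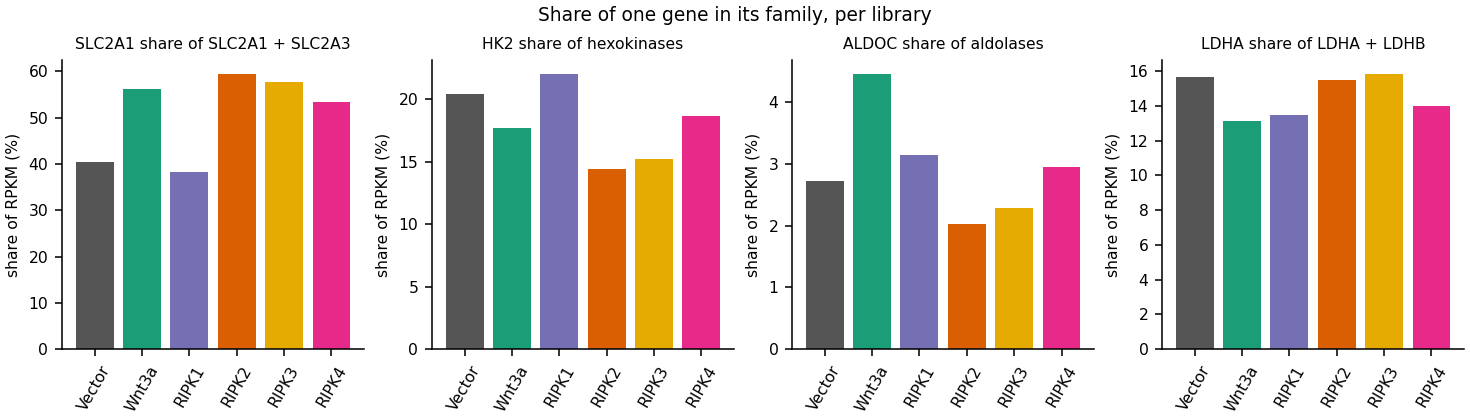
Share of each gene in the summed RPKM of its family (vertical axes, percent, from 0) in the 6 libraries (horizontal axes), 1 library per bar and so with no error bar. SLC2A1 takes 53.4% to 59.5% of the transporter pair in 4 libraries, and HK2 ranges from 14.4% to 22.0% of the hexokinases.

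Of the hypoxia response genes outside glycolysis, BNIP3 (664), which marks mitochondria for removal, stood at 5.59 RPKM with Vector, 6.24 with Wnt3a, 5.14 with RIPK1, 4.01 with RIPK2, 6.21 with RIPK3 and 5.23 with RIPK4. RIPK2 was the lowest, 1.39-fold below Vector (1.19 to 1.64), and the step between it and RIPK1 was the 1 step of 5 beyond counting error. BNIP3L, its relative, was more abundant, with BNIP3 at 19.9% (RIPK1) to 28.2% (RIPK3) of the pair. RefSeq lists 46 pseudogenes named for BNIP3, 6 for LDHA, 2 each for ALDOA and PGK1 and 1 for HK2, none of them in the table, so reads of these copies may have been split or lost and the levels of these genes are uncertain to that degree. BNIP3 also overlaps PPP2R2D, at 16.6 to 22.1 RPKM.

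VEGFA (7422), the main growth factor of blood vessels, was low throughout. It stood at 1.34 RPKM with Vector, 2.07 with Wnt3a, 1.22 with RIPK1, 2.45 with RIPK2, 1.996 with RIPK3 and 1.37 with RIPK4. RIPK2, Wnt3a and RIPK3 formed the upper set and RIPK4, Vector and RIPK1 the lower, and the gap between RIPK3 and RIPK4 was the only neighbour step beyond counting error. The ratio to Vector was 1.83 with RIPK2 (1.45 to 2.33), 1.54 with Wnt3a (1.21 to 1.98) and 1.49 with RIPK3 (1.17 to 1.91), from 221, 179 and 178 reads against 108.

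CA9 (768), a carbonic anhydrase of the cell surface that is among the genes most dependent on HIF, had a few reads in each library. It had 2 reads with Vector, 6 with Wnt3a, 2 with RIPK1, 1 with RIPK2, 7 with RIPK3 and 3 with RIPK4, or 0.0295 to 0.209 RPKM. No neighbour step exceeded counting error, and the ratio of RIPK3 to Vector, 3.16, had an interval of 0.602 to 31.2. A difference in CA9 was therefore not detectable at this depth.

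Differences from Vector were taken on log2(RPKM + 1), which understates those of low genes, and 2-fold and 1.5-fold differences on that scale were counted. With Wnt3a, ALDOC was the 1 gene of 9 at least 2-fold higher (0.673% of all genes), and ALDOC, SLC2A1 and PFKFB4 were at least 1.5-fold higher (7.95% of all genes). Of the 9, 8 stood above Vector at any size (53.3% of all genes), with a median difference of 0.39 beside 0.04 over all genes. With RIPK1 none of the 9 was 1.5-fold apart in either direction (0.901% of all genes were higher and 1.76% lower), 5 of 9 stood above Vector (52.2%), and the median of 0.01 was that of all genes. With median-of-ratios scaling of the libraries, ALDOA and LDHA with RIPK1 lay below Vector instead.

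With RIPK2 and with RIPK3, PFKFB4 was the 1 gene of 9 at least 1.5-fold higher (7.56% and 6.02% of all genes). At 2-fold, none of the 9 was higher with a kinase (0.295% of all genes with RIPK1, 1.59% with RIPK2, 1.47% with RIPK3 and 0.396% with RIPK4), and none was lower in any comparison. VEGFA with RIPK2, at a difference of 0.56, lay just short of 1.5-fold. The median over the 9 was -0.05 with RIPK2, beside -0.01 over all genes, and 4 of 9 stood above Vector (49.1% of all genes). With RIPK3 it was 0.13 beside 0.02, with 7 of 9 above (52.2%). With RIPK4, SLC2A1 was the 1 gene at least 1.5-fold higher (4.92% of all genes), and the median was 0.14 beside 0.05, with 7 of 9 above (55.6%), of which HK2 and VEGFA lay below Vector under median-of-ratios scaling. None of the 9 was 1.5-fold lower in any comparison (8.87% of all genes with Wnt3a, 6.52% with RIPK2, 3.36% with RIPK3 and 3.08% with RIPK4). These 5 comparisons share the Vector library, and each is given by its own values.

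**Figure D3:**
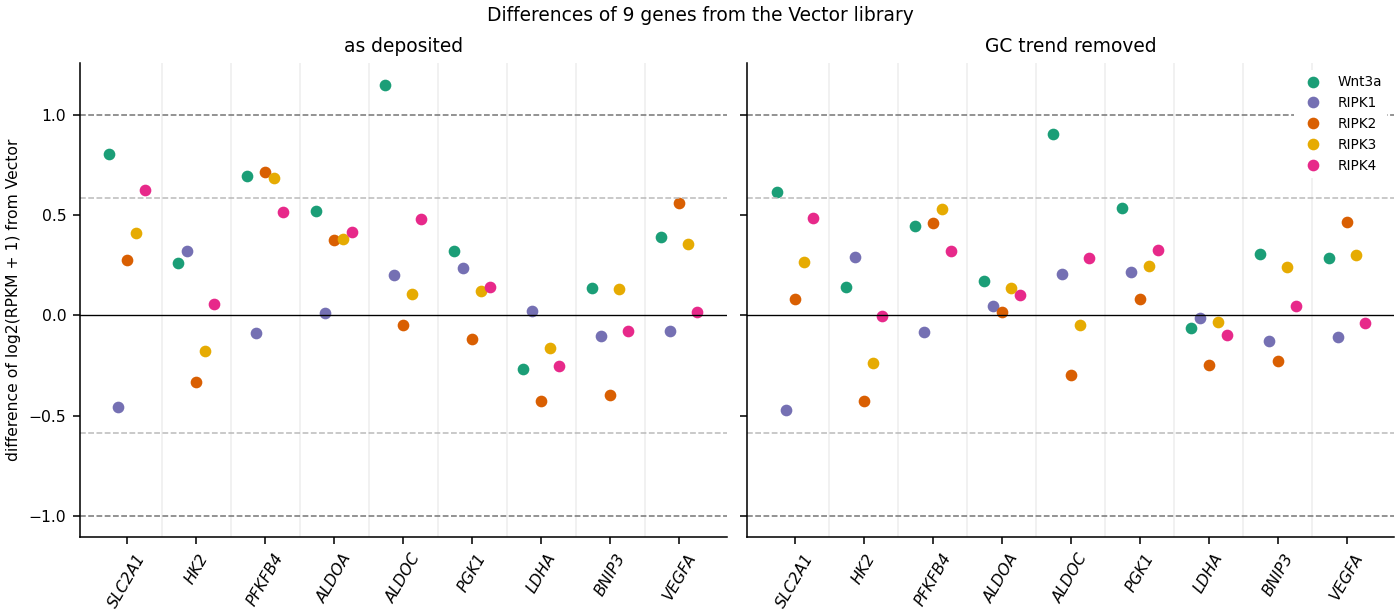
Difference of log2(RPKM + 1) from Vector (vertical axis) for the 9 genes with a mean of at least 1 RPKM, as deposited and with the GC trend removed, 1 point per library. Dashed lines mark 1.5-fold and 2-fold. ALDOC with Wnt3a is the 1 point past 2-fold, and it lies at 0.91 with the trend removed.

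Over 11779 genes, the differences from Vector ran along with transcript GC content, and Spearman's rho across genes was 0.70 with Wnt3a, 0.67 with RIPK2, 0.55 with RIPK3 and 0.67 with RIPK4, and -0.09 with RIPK1. Among the 9 genes, Pearson's r between GC content and difference was 0.72, 0.67, 0.58 and 0.79 in the first 4 and -0.19 with RIPK1, as a description over genes that share both libraries of each comparison. With Wnt3a and with RIPK4, the 4 of highest GC content (ALDOA, PFKFB4, ALDOC and SLC2A1, 54.8% to 62.0%) were the 4 farthest above Vector. Of the 3 of lowest GC content (PGK1, LDHA and BNIP3, 43.3% to 44.8%), LDHA lay below Vector in both. With a running median over genes of like GC content removed, none of the 9 genes was 2-fold apart. Those 1.5-fold higher were ALDOC (0.91) and SLC2A1 (0.61) with Wnt3a, and none with the kinases. The shares of all genes at these limits with the trend removed were not computed, so whether these counts are unusual is not known. SLC2A1 with RIPK1, in the library with little GC trend, stayed at -0.47 beside -0.46 as deposited, and 3.03% of all genes stood at or below the latter. The part of GC content in the remaining values was not tested.

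**Figure D4:**
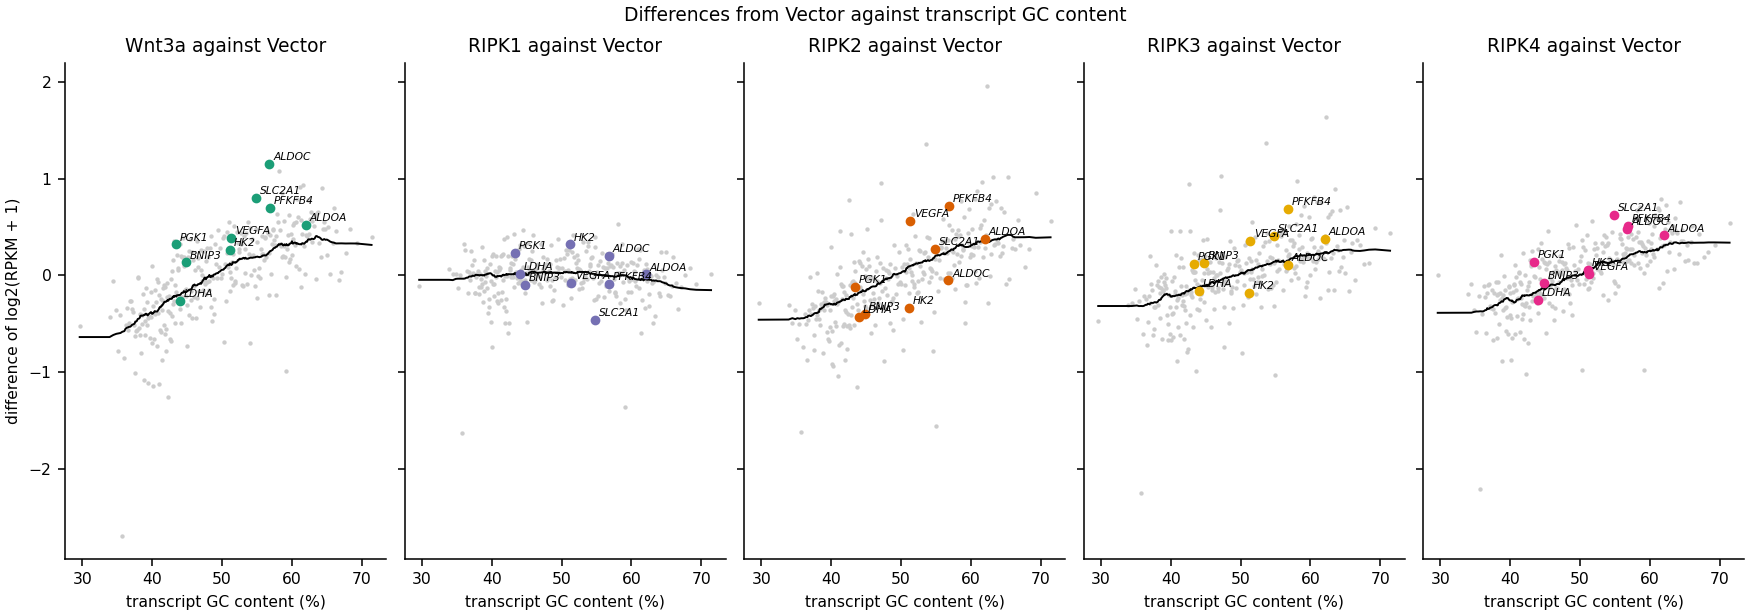
Difference of log2(RPKM + 1) from Vector (vertical axis) against transcript GC content (horizontal axis, percent) in the 5 comparisons. Coloured points are the 9 genes, grey points are an evenly thinned sample of all genes kept, and the black line is the running median, which slopes upward in all panels but that of RIPK1.

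Libraries were also compared without Vector. RIPK4 stood below Wnt3a in 8 of the 9 genes (45.1% of all genes), all but LDHA, and in 9 of 9 with the GC trend of that pair removed, with a median of -0.18 beside 0.02 over all genes. ALDOC was the 1 gene at least 1.5-fold lower (0.665% of all genes), 1.65-fold below Wnt3a (1.43 to 1.92). RIPK2 stood below RIPK3 in 7 of 9 (61.5% of all genes), all but PFKFB4 and VEGFA, and in 8 of 9 with the GC trend removed, with none 1.5-fold lower (0.194%). The largest of these steps was BNIP3, whose RPKM was 1.55-fold lower with RIPK2 (1.33 to 1.81), a difference of -0.53 on the log2(RPKM + 1) scale. The shares of 45.1% and 61.5% are for differences as deposited. No share of all genes was computed with the trend removed, so whether 9 of 9 or 8 of 9 is unusual is not known. Both pairs were chosen after the values were seen.

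The wider pathway was read through lists of its genes. Several of these lists hold genes already described above, so their counts repeat some of those values. ALDOA, ALDOC, PGK1, LDHA and HK2 are among the glycolytic enzymes. SLC2A1 and PFKFB4 are in the list of transport and control, and BNIP3, VEGFA and CA9 are among the hypoxia-induced targets. Of 23 glycolytic enzymes, 19 had a mean of at least 1 RPKM, and 4 of these were at least 1.5-fold higher with Wnt3a (ALDOC, ENO2, PFKL and GAPDH), 3 with RIPK2 (PFKP, PKM and ENO2), 2 with RIPK3 (PKM and PFKP), 1 with RIPK4 (PFKL) and 0 with RIPK1, and none was 1.5-fold lower in any. The share of all genes 1.5-fold higher was 7.95%, 7.56%, 6.02%, 4.92% and 0.901% in that order. The median difference of the 19 was 0.53 with Wnt3a, 0.15 with RIPK1, 0.07 with RIPK2, 0.12 with RIPK3 and 0.31 with RIPK4. With the GC trend removed these were 0.26, 0.15, -0.11, 0.02 and 0.10, so that RIPK2 turned sign. Those of the 19 above Vector at any size numbered 17 with Wnt3a (53.3% of all genes), 16 with RIPK1 (52.2%), 11 with RIPK2 (49.1%), 14 with RIPK3 (52.2%) and 17 with RIPK4 (55.6%). The summed RPKM of the 23 enzymes was 3724 with Vector, 5150 with Wnt3a, 4168 with RIPK1, 3990 with RIPK2, 4239 with RIPK3 and 4428 with RIPK4, from 1.28% of all RPKM with Vector to 1.70% with Wnt3a.

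GAPDH, the dehydrogenase of the middle of the pathway, stood at 1243 RPKM with Vector, 1899 with Wnt3a, 1342 with RIPK1, 1183 with RIPK2, 1255 with RIPK3 and 1542 with RIPK4. PKM, the pyruvate kinase of most tissues, had another order, with 489 RPKM in Vector, 707 with Wnt3a, 542 with RIPK1, 809 with RIPK2, 832 with RIPK3 and 590 with RIPK4. Thus PKM was highest with RIPK3 and RIPK2, the libraries in which GAPDH lay near its Vector level. ENO1, the common enolase, stood at 575 RPKM with Vector and 837 with Wnt3a, the lowest and highest of its 6 values. ENO2, the enolase of neurons, stood at 18.0 RPKM with Vector, 35.1 with Wnt3a, 19.0 with RIPK1, 28.9 with RIPK2, 26.2 with RIPK3 and 26.6 with RIPK4. The phosphofructokinase subunits differed too, PFKL reaching 1.68 times Vector with Wnt3a (1.59 to 1.76) and PFKP 1.73 times with RIPK2 (1.61 to 1.87). The levels and ratios of these enzymes are as deposited, with the GC trend left in, and the part of GC content in them was not tested.

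Transport and control of glycolysis held differences in both directions. SLC16A3 (MCT4), which exports lactate, stood at 3.35 RPKM with Vector, 11.2 with Wnt3a, 3.42 with RIPK1, 6.98 with RIPK2, 8.06 with RIPK3 and 8.55 with RIPK4. The 4 libraries with high PFKFB4 were the 4 in which SLC16A3 stood above Vector beyond counting error, and with Wnt3a the ratio was 3.35 (2.92 to 3.87). Its transcript has a GC content of 64.7%, and with the GC trend removed its differences were 1.12 with Wnt3a, 0.47 with RIPK2, 0.79 with RIPK3 and 0.80 with RIPK4. SLC16A1 (MCT1), which carries lactate in either direction, stood the other way, at 104 RPKM with Vector, 63.0 with Wnt3a, 102 with RIPK1, 60.5 with RIPK2, 67.3 with RIPK3 and 87.6 with RIPK4. This list had 11 genes with a mean of at least 1 RPKM, out of 13. Those at least 1.5-fold higher numbered 3 with Wnt3a (7.95% of all genes), 3 with RIPK2 (7.56%) and 2 with RIPK3 (6.02%). They numbered 2 with RIPK4 (4.92%) and 0 with RIPK1 (0.901%). The higher genes were SLC16A3, SLC2A1 and PFKFB4 with Wnt3a, and SLC16A3, PFKFB3 and PFKFB4 with RIPK2. With RIPK3 they were SLC16A3 and PFKFB4, and with RIPK4 SLC16A3 and SLC2A1. SLC2A1 and PFKFB4 are thus counted here a further time. Those lower numbered 1 (8.87% of all genes), 2 (6.52%), 2 (3.36%), 0 (3.08%) and 0 (1.76%), namely SLC16A1 with Wnt3a, and SLC16A1 and SLC2A3 with RIPK2 and RIPK3.

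**Figure D5:**
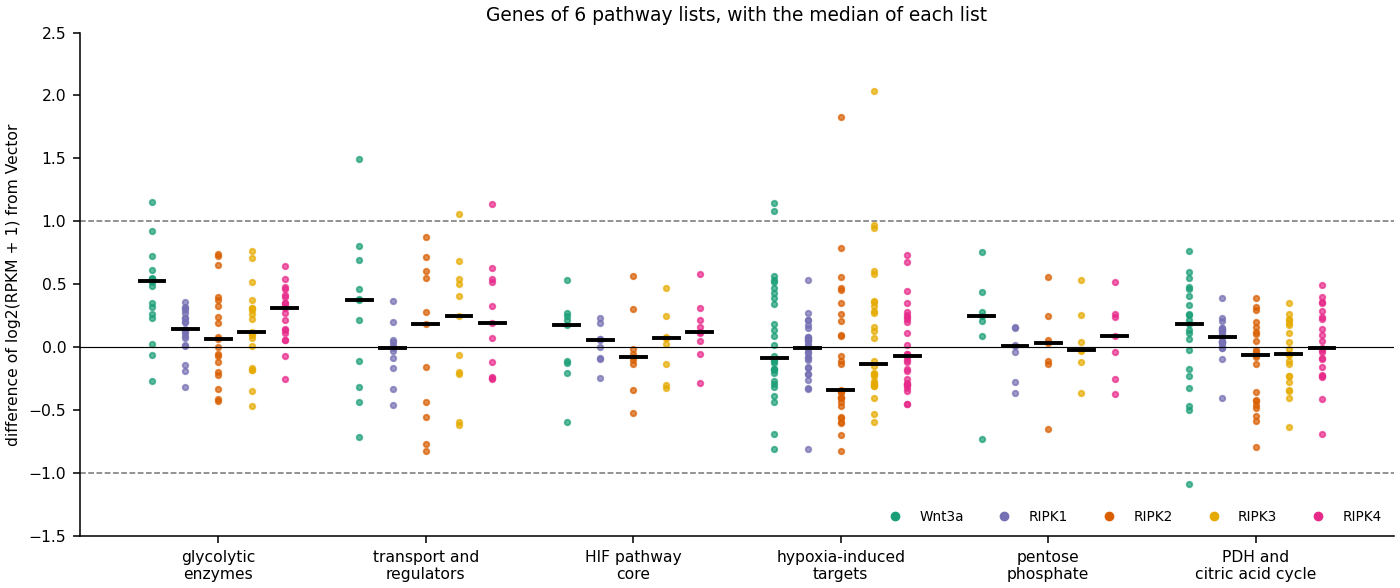
Difference of log2(RPKM + 1) from Vector (vertical axis) for each gene of 6 pathway lists (horizontal axis), 1 point per gene and library, with a black bar at the list's median and dashed lines at 2-fold. The glycolytic enzymes have their highest median with Wnt3a, 0.53, and the hypoxia-induced targets their lowest with RIPK2, -0.34.

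Genes that build the oxygen response itself showed few differences of 1.5-fold. HIF1A, the oxygen-regulated subunit, stood at 87.0 RPKM with Vector, 57.4 with Wnt3a, 86.9 with RIPK1, 60.3 with RIPK2, 69.3 with RIPK3 and 71.4 with RIPK4. HIF1A was thus lower in the 4 libraries with a GC trend, and its GC content is 36.4%. Its difference with Wnt3a, -0.59, was -0.05 with the trend removed, and the others lay between -0.09 and 0.08. EPAS1, its relative, lay between 38.8 (RIPK2) and 52.2 RPKM (RIPK4), and ARNT, the shared partner, between 13.0 and 16.3 RPKM. Of the hydroxylases that mark HIF for degradation, EGLN1 lay between 5.63 and 7.02 RPKM, EGLN3 between 2.69 and 4.06 RPKM, and EGLN2 was 1.52-fold higher than Vector with RIPK4 (1.42 to 1.63), a difference of 0.58 that was 0.25 with the trend removed. In all, 9 of 10 genes were at 1 RPKM or more, and HIF1A (lower with Wnt3a, as were 8.87% of all genes) and EGLN2 (higher with RIPK4, as were 4.92%) were those 1.5-fold apart, and 1 of 9 is near those shares.

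Hypoxia-induced targets stood on both sides of Vector. Of 32 such genes, 28 had a mean of at least 1 RPKM, and their median difference was -0.08 with Wnt3a, -0.00 with RIPK1, -0.34 with RIPK2, -0.13 with RIPK3 and -0.07 with RIPK4. With the GC trend removed these were 0.19, -0.01, -0.14, 0.05 and 0.03. At least 2-fold higher were P4HA2 and DDIT4 with Wnt3a (0.673% of all genes) and BHLHE40 with RIPK2 (1.59%) and RIPK3 (1.47%), and none was 2-fold lower. BHLHE40, a repressor that is also a clock gene, stood at 8.20 RPKM with Vector, 11.8 with Wnt3a, 4.27 with RIPK1, 31.7 with RIPK2, 36.8 with RIPK3 and 11.5 with RIPK4. It was far higher with RIPK2 and RIPK3 than in the rest, and RIPK1 was the lowest. DDIT4, which restrains mTOR, stood at 13.4 RPKM with Vector, 29.4 with Wnt3a, 19.8 with RIPK1, 18.9 with RIPK2, 27.2 with RIPK3 and 22.0 with RIPK4, above Vector in each. With Wnt3a the difference of DDIT4 was 1.08, and the GC trend at its GC content of 58.1% was 0.32. With that trend removed the difference fell short of 2-fold.

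P4HA2, a prolyl hydroxylase of collagen, stood at 2.83 RPKM with Vector and 7.50 with Wnt3a, a ratio of 2.65 (2.17 to 3.25). The sum of the fibroblast markers was above Vector there, and also with RIPK4, where P4HA2 differed by 0.73. That sum was above Vector with RIPK2 and RIPK3 too, where P4HA2 was not 1.5-fold higher. A link between them was not tested. NDRG1, a stress response gene, was 2.40-fold (1.98 to 2.93) above Vector with RIPK2 and 2.79-fold (2.30 to 3.39) with RIPK3, at 2.61 and 3.03 RPKM against 1.09. Other targets stood lower. ADM, a peptide hormone that widens vessels, was 40.2 RPKM with Vector and 24.5 with Wnt3a, and its difference of -0.69 was -0.98 with the GC trend removed. ERO1L, which oxidises proteins in the endoplasmic reticulum, was 28.8 RPKM with Vector and 16.0 with Wnt3a, and ANKRD37 was 7.07 RPKM with Vector and 3.97 with RIPK2.

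The genes nearest to these 3, SLC2A1, ALDOC and PFKFB4, were found by the distance between centred log2(RPKM + 1) profiles over the 6 libraries. For SLC2A1 they were CD74 (distance 0.211), the chaperone of MHC class II molecules, GPR3 (0.232), an orphan receptor, and IGSF8 (0.256), a surface protein of the immunoglobulin family. For ALDOC they were TUBB2B (0.181), a neuronal tubulin that stood at 164 RPKM with Vector and 353 with Wnt3a, EMID1 (0.221) and CNTFR (0.238), the receptor of ciliary neurotrophic factor. For PFKFB4 they were PIK3CD (0.0805), a lipid kinase subunit, XAB2, a factor of repair and splicing, and LIMK1 (0.111), a kinase of the actin skeleton. None of these 9 genes belongs to the pathway lists, and their GC contents of 56.4% to 66.6% each lie above that of the gene they are near. The 6 libraries are the points of each profile, and no more is drawn from the likeness.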

How the data were processed

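RNA was sequenced from 6 samples of PA-1 cells, 1 library per group, with groups taken from the transfection label. The deposited table holds the authors' RPKM for 20494 genes, 1 column per library, per the file headers. GSNAP, DESeq and hg19 are named in the submitters' processing notes, and the sources used here give no role or version for them, nor the annotation or the use of strand. Values were used as deposited. Reads and library totals were recovered from the RPKM values as whole numbers over a gene length of 15 to 30000 bases, which solved 96.0% of the 11881 genes kept (mean RPKM of at least 1), and were otherwise approximated from GENCODE 29 transcript length. The method was tested on simulated data. Differences are of log2(RPKM + 1), with exact binomial 95% intervals of RPKM ratios (normal approximation on the log scale for ratios of gene pairs). Depth was 17.2 to 19.5 M reads, and 3 reads, the limit that a count of 0 allows, came to 0.0769 to 0.0870 RPKM for a 2 kb transcript. Transcript GC content came from GENCODE 29, and its trend is a running median over 501 genes. Python 3.11.15, pandas 2.3.3, numpy 2.4.6 and scipy 1.17.1 were used. The transfected kinase was left out of the counts over all genes.

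The 10 genes and the lists were chosen with earlier results of these data known. Named beside the 10 are the kinases, list genes at least 1.5-fold apart (up to 4 per list and comparison), HIF1A, EPAS1, ARNT, EGLN1, EGLN3, GAPDH, ENO1 and PKM, and the 3 nearest genes of the 3 with the widest range of log2(RPKM + 1). Family partners, overlapping genes and cell type markers were added to these after values were seen. Alternatives were another pseudocount, scaling by median-of-ratios size factors, other filters, removal of the GC trend and another reference library. Some genes of the lists are not reported here by name.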

Additional observations from a re-analysis of the deposited data

How the results depend on the processing

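No paired analysis was possible because each group holds 1 library and the labels carry no replicate numbers, and for the same reason no library could be left out of a group. With the GC trend removed, those of the 9 genes at least 2-fold higher with Wnt3a numbered 0 in place of 1. Those at least 1.5-fold higher numbered 0 in place of 1 with each of RIPK2, RIPK3 and RIPK4. Shares over all genes were not computed with the trend removed or under the other alternatives that follow. Whether any of these counts is unusual is therefore not known. A pseudocount of 0.1 gave 2 at least 1.5-fold higher with RIPK2. Median-of-ratios scaling gave 0 with RIPK4, and medians of -0.0289 with RIPK1 and 0.0784 with RIPK4. The RIPK4 median was 0.10 with no filter and 0.28 with a mean RPKM of at least 5. Setting the libraries against RIPK1 in place of Vector, an alternative chosen after seeing the data, gave 3 genes at least 1.5-fold higher and 1 lower with RIPK2, 2 higher with RIPK3, and 2 at 1.5-fold and 1 at 2-fold higher with RIPK4, whose median was 0.0939. With the GC trend removed the median turned sign with RIPK2 (-0.05 to 0.02) and RIPK1 (0.01 to -0.01) and went from 0.13 to 0.24 with RIPK3, and against RIPK1 it was -0.25 with RIPK2 and 0.23 with RIPK3. The other counts stayed within 1.5 times of the values reported. Against RIPK1 the 1 gene at least 2-fold higher with Wnt3a was SLC2A1 (1.26), and ALDOC fell short at 0.95. Of single differences, 6 of 45 took the other sign with the GC trend removed, 4 of 45 under median-of-ratios scaling and 6 of 36 against RIPK1, and 0 with the other pseudocount or filters. The cause was not tested. Depth limits CA9 most, with 1 to 7 reads, and VEGFA, with 108 to 221.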

Other observations

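The pathways that branch from glycolysis were read the same way. Of 7 pentose phosphate genes, all with a mean of at least 1 RPKM, RPE, an epimerase, stood at 24.9 RPKM with Vector and 14.6 with Wnt3a, and its difference of -0.73 was -0.20 with the trend removed.

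Of 21 genes of pyruvate dehydrogenase and the citric acid cycle, SDHD, an anchor subunit of succinate dehydrogenase, was the 1 gene at least 2-fold lower than Vector, with Wnt3a (1.43% of all genes). It stood at 19.1 RPKM with Vector, 8.47 with Wnt3a, 14.2 with RIPK1 and 10.6 to 11.985 with RIPK2, RIPK3 and RIPK4, so that Vector was the highest of the 6. SDHA, the catalytic subunit of the same enzyme, stood at 17.8 RPKM with Vector, 30.9 with Wnt3a, 19.1 with RIPK1, 20.6 with RIPK2, 20.5 with RIPK3 and 25.5 with RIPK4, so that Vector was the lowest. With Wnt3a and the GC trend removed, the difference was -0.75 for SDHD and 0.57 for SDHA.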
